A study of Homo sapiens with 9 samples.

Results

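Tumors grown from Rh30 cells in mice were set against the same cells grown as an adherent monolayer. The comparison took every array whose growth method is given as xenograft (3 arrays) and every array given as adherent (3 arrays), which are 6 of the 9 arrays of the study, and all 54613 probe sets of the array that are not controls. Rh30 is a human cell line from a fusion-positive rhabdomyosarcoma (FP-RMS), a childhood tumor of muscle-like cells, and every sample carries the PAX3-FOXO1 fusion. Adherent cells were grown on plastic in RPMI medium with FBS. The xenografts grew in SCID/beige mice, which lack T and B cells and have weak natural killer cells but keep vessels, fibroblasts, macrophages and muscle of their own. The methods of the study describe an injection of adherent cells, in PBS, into the gastrocnemius muscle, whereas the sample labels give a flank injection under the skin in Matrigel of cells from either culture form, and the files do not settle which was used. The remaining 3 arrays, of spheres grown in Neurobasal medium with insulin, EGF, bFGF and B27, served as a second reference. RNA was measured on Affymetrix U133 Plus 2.0 arrays, which carry human probes only, and the study calls the samples of each group biological triplicates.

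A monolayer and a tumor differ in what the cells touch and in what reaches them. Cells that spread on a stiff surface pull on it through integrins and actin stress fibers, and this keeps the coactivators YAP and TAZ in the nucleus, where they act with TEAD factors on genes such as CCN1, CCN2 and AXL. A tumor in a muscle or under the skin grows past its blood supply, so that HIF factors are stabilized in oxygen-poor regions and act on genes of glycolysis, vessel growth and mitophagy. FP-RMS cells are held at a myoblast stage by PAX3-FOXO1, and they express myogenic factors such as MYOD1 and MYOG together with fusion targets such as ALK, FGFR4 and MYCN. A tumor sample also holds cells of the mouse, whose RNA can bind human probes where the sequences are alike. In such bulk samples fewer cells of a type and less RNA per cell cannot be told apart.

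Levels are given as the log2 RMA values of the authors, differences as log2 differences of xenografts minus adherent cells with the standard error of limma, and a gene was called changed at an adjusted p under 0.05. A gene is represented by its brightest probe set over the 9 arrays. Since the files hold no detection calls, the level of probe sets that should find no transcript was read from 21 genes of unrelated tissues such as ALB, INS and CRYAA. The higher of the adherent and xenograft means of each ran from 2.37 to 6.14 with a median of 3.72, and values within this range are called dim below. A fold change that ends in the dim range may understate the true change.

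The arrays of a group were alike, with correlations over all probe sets of 0.997 to 0.998 among adherent arrays and of 0.990 to 0.993 among xenograft arrays, against 0.980 to 0.987 between the groups. The number of arrays limits the precision, and p-values measure the spread between these samples. Differences between 3′ and 5′ control probe sets, a sign of RNA quality, were 2.39 ± 0.30 for ACTB in adherent cells and 2.48 ± 0.23 in xenografts on the log2 scale (SD, n = 3 each; two-sided exact permutation test, p = 0.8). The poly-A control RNAs, which are added to each sample before amplification, read 7.48 ± 0.19 in adherent cells and 8.18 ± 0.41 in xenografts (SD, n = 3 each; two-sided exact permutation test, p = 0.1, the smallest that 3 against 3 allows). All 14 markers of FP-RMS that were listed lay above the dim range in both groups, MYOD1, MYOG, PAX3, MYCN and FGFR4 among them, so the tumor arrays carried the profile that their label names. Xenograft replicate 1 stood apart from the other two xenografts: 114 genes lay over 1 log2 unit from both other xenografts while those agreed within 0.5, against 5 and 8 genes for xenograft replicates 2 and 3 and 0 to 1 for the adherent arrays.

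Of 19775 genes, 2500 were higher in xenografts (12.6%) and 2829 were lower (14.3%), 5329 in either direction (26.9%). The counts of the gene lists below describe them beside these shares. Those of the cadherin, cholesterol, cytokine, adipocyte, skin and Schwann cell lists, and of the genes of unrelated tissues, lay at or below both. The arrays of both groups did not overlap for 8673 genes (43.9%), and against spheres 8705 genes differed (44.0%). The median difference of all genes was 0.08. Large changes leaned downward: 158 genes rose and 491 fell by at least 2-fold, 24 rose and 68 fell by at least 4-fold, and 4 rose and 21 fell by at least 8-fold. The split of the calls moved with the scaling, since 58.8% of changed genes were higher after quantile normalization and 36.1% after median centring of the arrays, against 46.9% here. It also moved with brightness. Among the 10046 genes in the dim range in adherent cells the median difference was 0.15, with 1255 higher and 289 lower, while the genes ranked in the top 4 of 10 brightness bands had medians of −0.12 to −0.07. Without xenograft replicate 1, 5887 genes were called. Without adherent replicate 2, 3423 genes were called, 1363 of them higher, and without adherent replicate 3, 1520 were higher.

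The gene that rose most was SLC30A1, which codes for the ZnT1 exporter that moves zinc out of the cell. It read 5.69, 5.97 and 5.63 in the adherent arrays and 9.64, 9.94 and 9.44 in the xenografts, a 15-fold rise (log2 3.91, SE 0.15, adjusted p = 4.7e-08). Its level in spheres was close to that in xenografts, with a difference of 0.25 (95% interval −0.08 to 0.58). CLEC11A, a secreted growth factor for bone-forming and blood stem cells, read 5.83, 5.61 and 5.90 in adherent cells and 8.82, 9.56 and 9.65 in xenografts (3.57, SE 0.19, adjusted p = 6.3e-07), with all 3 of its probe sets called higher. In contrast to SLC30A1, it stayed at 5.72 in spheres and was higher in xenografts than there by 3.63 (adjusted p = 1.6e-07). ACTA1, the actin of adult skeletal muscle, rose from 5.19, 5.14 and 5.14 to 8.40, 8.48 and 8.26 (3.22, SE 0.16, adjusted p = 3.2e-07), and MYH4, a fast myosin, from 2.49, 2.13 and 2.28 to 4.81, 4.37 and 4.92 (2.40, SE 0.15, adjusted p = 1.6e-06). Both are also transcripts of the muscle of the host, and MYH4 stayed within the dim range in every array. MFAP4, a protein of elastic fibers, rose from 7.34, 7.35 and 7.36 to 9.39, 9.68 and 9.76 (2.26, SE 0.10, adjusted p = 2.4e-07), and its difference from spheres was −0.08 (adjusted p = 0.56).

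Several of the largest rises were uneven among the tumors. TPD52, a regulator of vesicle traffic, read 3.97, 4.08 and 3.98 in adherent cells and 8.58, 6.36 and 6.11 in xenografts (3.01, SE 0.47, adjusted p = 0.0009), and LUM, the collagen-binding proteoglycan lumican, read 4.22, 4.53 and 4.14 against 8.31, 6.47 and 6.56 (2.82, SE 0.41, adjusted p = 0.00057). Xenograft replicate 1 was the highest of both, and without it the differences were 2.23 and 2.22. One of 5 probe sets of TPD52 and 1 of 2 of LUM was called. HSPA6, a heat shock protein that is made almost only under stress, read 5.34, 4.94 and 5.02 against 8.85, 7.11 and 7.13 (2.60, SE 0.36, adjusted p = 0.00042), and 2.02 without that array. DRC9, DGKB and AFM also spread over more than 1 log2 unit among the xenografts. The SEs of such genes pool the tumors with the more even adherent and sphere arrays. For TPD52 the SD was 1.36 in xenografts, 0.06 in adherent cells and 0.03 in spheres (n = 3 each). MMP3, the matrix metalloprotease stromelysin 1, rose from 4.47, 4.42 and 4.75 to 7.77, 7.33 and 6.46 (2.64, SE 0.25, adjusted p = 3.2e-05). SERPINB9, an inhibitor of granzyme B, rose from 4.18, 4.08 and 3.95 to 6.59, 6.14 and 6.20 (2.24, SE 0.13, adjusted p = 1.3e-06). Of the 15 largest rises, 11 were also higher in xenografts than in spheres, 3 did not pass that test (SLC30A1, TPD52 and MFAP4) and MT1X was lower.

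The falls were steeper. MAMDC2, a secreted proteoglycan, dropped from 7.79, 8.07 and 7.77 to 2.63, 2.79 and 2.86, a 34.8-fold difference (−5.12, SE 0.11, adjusted p = 3.8e-10). AXL, a receptor tyrosine kinase for GAS6 and a known YAP target, dropped from 9.22, 9.20 and 9.20 to 4.09, 4.19 and 4.29, which is 32.4-fold (−5.02, SE 0.09, adjusted p = 1.3e-10). Its other probe set was dim in both groups and was not called. NNMT, which methylates nicotinamide, dropped from 9.11, 9.16 and 9.14 to 4.28, 4.57 and 4.25, which is 27.3-fold, on all 3 of its probe sets (−4.77, SE 0.10, adjusted p = 3.8e-10). In spheres these 3 genes kept levels of 7.06, 8.81 and 8.81, and xenografts were below spheres by −4.30, −4.62 and −4.45 on the log2 scale. ANXA3 fell by 4.51, PKIB, an inhibitor of protein kinase A, by 4.12, the thrombin receptor F2RL2 by 3.98, the water channel AQP1 by 3.62, the cytokine IL11 by 3.53 and the adhesion molecule L1CAM by 3.25 on the log2 scale. F2RL2, IL11 and L1CAM were each called on 1 of 2 probe sets, and PKIB and AQP1 on both. F2RL2 was uneven among the tumors, at 2.20, 4.10 and 3.58. TNNI1, the slow skeletal troponin I, stayed bright in the tumors while it fell from 11.38, 11.26 and 11.34 to 7.56, 8.07 and 7.97 (−3.46, SE 0.12, adjusted p = 3e-08). FRAS1, a basement membrane protein, and LAPTM5, a lysosomal protein of blood cells that Rh30 cells express, were lowest in xenograft replicate 1: FRAS1 read 3.90, 6.71 and 6.71 in the tumors against 9.24 to 9.55 before, and LAPTM5 read 5.52, 7.19 and 6.82 against 10.02 to 10.10. All 15 largest falls were also below the spheres.

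**Figure D1:**
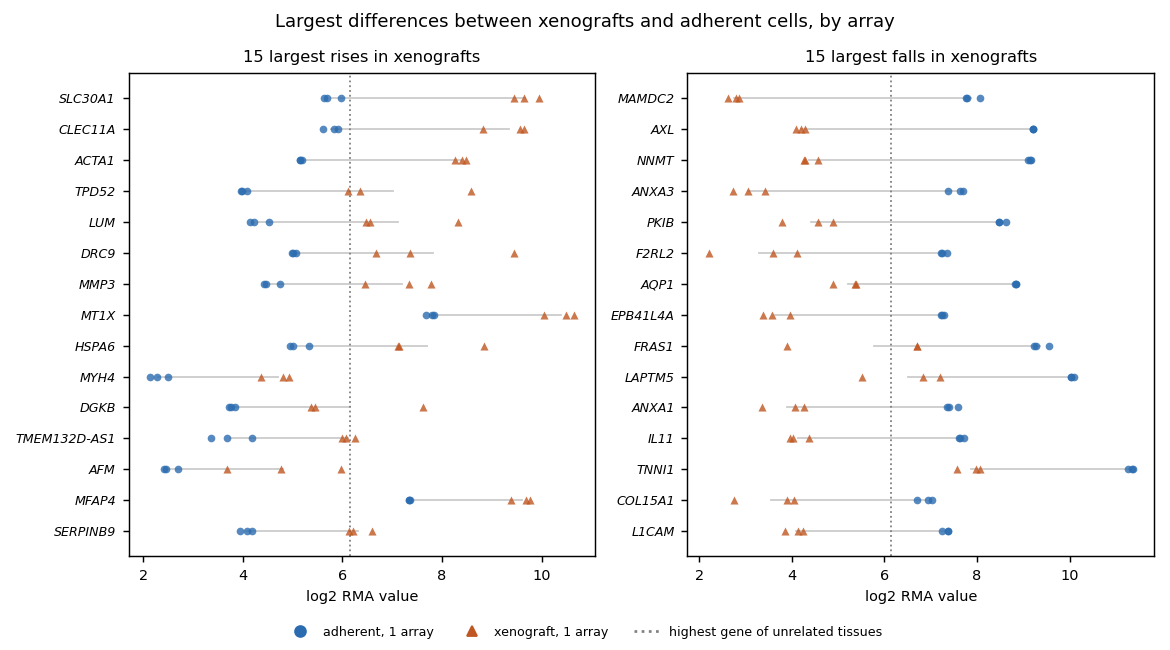
Log2 RMA values of the 15 genes that rose most and the 15 that fell most, 1 point per array (circles adherent, triangles xenograft), with a gray line from the mean of one group to the mean of the other and a dotted line at 6.14, the top of the dim range. The groups do not overlap for any of these genes, which the rule for choosing them requires, and the xenografts of TPD52, LUM, DRC9, DGKB, AFM and FRAS1 are spread.

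Targets of YAP and TAZ had the lowest median of the 46 gene lists. Of 23 genes measured, 18 were lower in xenografts and 1 was higher, where 14.3% and 12.6% of all genes were, and the median difference was −1.03 beside 0.08 for all genes. It was −0.65 when the probe sets of each gene were averaged and −0.73 without xenograft replicate 3, and the lowest of the lists under each alternative tried. The summed linear signal of the list was 11668 to 12578 in the adherent arrays and 5646.9 to 6916.5 in the xenografts. After AXL the largest fall was that of MYOF, the membrane repair protein myoferlin, from 6.49, 6.47 and 6.47 to 3.84, 2.60 and 3.28 (−3.23, SE 0.23, adjusted p = 3.8e-06). That probe set carries a suffix for possible cross-hybridisation, as does a second that gave −1.40, and the remaining one without it was dim and gave 0.03. The secreted matricellular proteins CCN2 and CCN1 are the classic readouts of the pathway. CCN2 read 6.18, 6.45 and 6.40 in adherent cells and 4.11, 4.96 and 4.17 in xenografts (−1.93, SE 0.31, adjusted p = 0.0011), and CCN1 read 9.05, 9.20 and 8.97 against 8.24, 7.81 and 7.42 (−1.25, SE 0.26, adjusted p = 0.0048). In spheres CCN2 averaged 7.26, and xenografts lay −2.85 from it on the log2 scale (adjusted p = 3e-05). Over the list, the median difference of spheres from adherent cells was −0.40. Xenografts were lower than spheres for 10 of the 23 genes and higher for 3, where 44.0% of all genes differed.

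Regulators of the Hippo pathway that are themselves YAP targets fell together. AMOTL2, a scaffold that binds YAP, read 8.64, 8.83 and 8.62 in adherent cells and 7.53, 6.68 and 6.73 in xenografts (−1.71, SE 0.20, adjusted p = 0.00013). The kinase LATS2 read 10.45, 10.51 and 10.33 against 8.69, 8.74 and 8.76 (−1.70, SE 0.09, adjusted p = 4.6e-07), and the phosphatase PTPN14 read 10.58, 10.65 and 10.44 against 8.72, 9.40 and 9.02 (−1.51, SE 0.15, adjusted p = 3.7e-05). AMOTL1 and AJUBA, a LATS inhibitor, fell by 1.09 and 1.06 on the log2 scale. All 5 stayed above the dim range in the tumors, and AXL, MYOF, CCN2, CRIM1 and ANKRD1 did not. ANKRD1, a nuclear ankyrin-repeat protein, was dim in both groups, at 3.48 to 3.64 and 2.43 to 2.66. The exception to the direction was F3, tissue factor, at 6.65 to 6.84 in adherent cells and 6.97 to 7.16 in xenografts (0.34, adjusted p = 0.044), and 5 of the 6 arrays ended this call when left out (highest adjusted p = 0.14). Lower calls numbered 17 without xenograft replicate 1, 13 to 17 over the arrays left out in turn, and 15 after quantile normalization.

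The promoters of CCN2 and ANKRD1 are shown because both genes fell and both hold copies of the TEAD binding letters close to their start. The windows are the 250 bases before the RefSeq start site on GRCh38.p14, 5′ to 3′ on the strand of the gene, at chr6:131951373-131951622 (minus strand) and chr10:90921088-90921337 (minus strand). Capitals mark GGAATG, searched on both strands.
CCN2: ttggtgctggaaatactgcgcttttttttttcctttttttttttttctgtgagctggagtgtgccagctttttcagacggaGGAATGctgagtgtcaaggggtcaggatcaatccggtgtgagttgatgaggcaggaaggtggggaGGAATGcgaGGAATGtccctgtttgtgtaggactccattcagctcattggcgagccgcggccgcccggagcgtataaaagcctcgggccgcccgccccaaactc
ANKRD1: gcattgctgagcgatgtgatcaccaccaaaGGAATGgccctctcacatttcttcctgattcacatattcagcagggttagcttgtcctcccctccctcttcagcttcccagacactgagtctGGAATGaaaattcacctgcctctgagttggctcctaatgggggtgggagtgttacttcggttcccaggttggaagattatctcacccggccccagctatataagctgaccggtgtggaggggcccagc
CCN2 holds 3 copies, 169 to 95 bases before the start, and ANKRD1 holds 2, at 220 and 128 bases. Of the 18 lower genes, 13 had a window in the table and 7 of these held the motif (AMOTL2, CCN2, ANKRD1, AXL, PTPN14, TGFB2 and AJUBA), and 1 of 3 unchanged genes did. Of all 27305 genes with a window, 14.3% held it in at least 1. A match describes the letters in this window and not a site in use.

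Extracellular matrix genes moved the same way. Of 30 measured, 17 were lower in xenografts and 0 higher (median −0.49), and 8 fell by at least 2-fold. COL15A1, a collagen of basement membrane zones, read 6.70, 7.03 and 6.94 in adherent cells and 2.74, 3.88 and 4.05 in xenografts (−3.33, SE 0.28, adjusted p = 1.3e-05). The main collagen IV chains of the basement membrane, COL4A1 and COL4A2, remained bright: COL4A1 read 11.29, 11.44 and 11.25 against 10.38, 10.49 and 10.20 (−0.97, SE 0.10, adjusted p = 7.2e-05), and COL4A2 read 12.20, 12.30 and 12.17 against 11.09, 11.25 and 11.23 (−1.03, SE 0.09, adjusted p = 1.5e-05). Their partners in that layer fell with them, the laminin chain LAMC1 by 0.89, the linker nidogen NID1 by 1.56 and the laminin chain LAMA4 by 1.04 on the log2 scale, the last on 1 of 5 probe sets. COL5A1, which sets the width of collagen fibrils, fell by 1.32, and FBLN5, of elastic fibers, fell by 1.63. COL12A1 and tenascin C (TNC) fell by 1.13 and 1.16, and both were lowest in xenograft replicate 1; without it the difference of COL12A1 was −0.75. No member of the list rose here, whereas leaving out single arrays gave 0 to 2 higher and 13 to 17 lower. Other matrix genes that were not members rose, MFAP4 and, among the fibroblast markers below, LUM, COL1A2, COL3A1 and DCN.

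Integrins hold cells to this matrix. Of 31 integrin and focal adhesion genes, 13 were lower, 2 higher and 16 not called (median −0.14), beside 14.3% lower and 12.6% higher of all genes. The fibronectin receptor chain ITGA5 read 7.25, 7.27 and 7.25 in adherent cells and 5.82, 6.52 and 6.45 in xenografts (−1.0, SE 0.16, adjusted p = 0.0012), and its partner ITGB1 read 12.002, 12.20 and 11.95 against 11.75, 11.46 and 11.32 (−0.54, SE 0.13, adjusted p = 0.011), a call lost without adherent replicate 2 (adjusted p = 0.055). The laminin receptor chain ITGA6 fell by 0.95, ITGB5 by 0.90, ITGA4 by 0.88 and ITGAV by 0.63 on the log2 scale, with every probe set of these 4 genes called. The link from integrins to actin fell too: vinculin (VCL) by 0.88, parvin alpha (PARVA) by 0.72 and paxillin (PXN) by 0.57. Talin, TLN1, was higher, at 6.49 to 6.68 in adherent cells and 7.01 to 7.40 in xenografts (0.57, adjusted p = 0.0075), on 1 of its 3 probe sets. One of the 2 probe sets of VCL was called in the opposite direction. In spheres VCL was at 11.03 and ITGA5 at 7.62, and xenografts lay −1.61 and −1.36 from these.

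Among actin and SRF target genes 7 of 20 were lower and 2 higher (median −0.08). The nonmuscle myosin heavy chain MYH9 fell by 0.91, the actin crosslinker ACTN1 by 0.67 and SRF, the factor that gives the list its name, by 0.47 on the log2 scale. FHL2, a partner of integrins and of SRF, rose from 7.80, 7.89 and 8.02 to 9.65, 9.13 and 9.36 (1.48, SE 0.13, adjusted p = 1.6e-05). After quantile normalization the list counted 3 lower and 4 higher. TPM1 has no single direction: its brightest probe set gave 0.98 and the mean of its 6 probe sets −0.41.

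Annexins bind membranes in the presence of calcium and pair with S100 proteins. Of 19 listed members of these families 6 fell while 1 rose (median −0.18). The list left out some S100A genes. Over each whole family, 4 of 11 annexins were lower and 0 higher. Of 15 S100A genes 2 were lower and 3 higher (S100A1, S100A4 and S100A8). ANXA3 read 7.70, 7.38 and 7.64 in adherent cells and 2.72, 3.42 and 3.04 in xenografts (−4.51, SE 0.16, adjusted p = 3e-08). ANXA1, an anti-inflammatory annexin, read 7.36, 7.59 and 7.39 against 4.08, 4.27 and 3.36 on 1 of 2 probe sets (−3.55, SE 0.19, adjusted p = 5.6e-07), while it stood at 9.48 in spheres. S100A10 forms a complex with ANXA2 at the cell surface that binds plasminogen activators, and both fell: S100A10 from 9.50, 9.48 and 9.50 to 8.07, 8.11 and 8.01 (−1.43, SE 0.08, adjusted p = 1.3e-06), and ANXA2 from 11.70, 11.64 and 11.74 to 10.45, 10.61 and 10.53 (−1.17, SE 0.09, adjusted p = 8.4e-06). The value of ANXA2 rests on 3 of its 4 probe sets, which carry a suffix for possible cross-hybridisation, and the probe set without it was dim and gave 0.20. S100A4 rose, from 5.42 to 5.57 in adherent cells to 5.999 to 6.17 in xenografts (0.62, adjusted p = 0.00098).

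Enzymes and receptors that act on the matrix were mixed, with 10 of 24 lower and 4 higher (median −0.28). The aggrecanase ADAMTS5 read 10.70, 10.96 and 10.75 in adherent cells and 7.71, 9.12 and 8.54 in xenografts, on all 4 of its probe sets (−2.35, SE 0.26, adjusted p = 8.4e-05). The collagen crosslinking enzyme LOXL2 fell by 1.85, the protease inhibitor TIMP2 by 1.43 and both plasminogen activators, PLAU and PLAT, by 0.68 and 0.62 on the log2 scale. MMP3 was the member that rose most, while MMP2 read 8.03, 9.77 and 10.003 in the tumors beside 10.06 to 10.30 in adherent cells, a spread in which the difference did not pass the test (adjusted p = 0.1). SERPINE2, an inhibitor of thrombin and of plasminogen activators, rose by 0.52, from 11.54 in each adherent array to 12.004 to 12.10.

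Genes of the hypoxia response formed the list with the highest median, 0.63 beside 0.08 for all genes, with 14 of 26 measured genes higher and 5 lower. The rise was not particular to the tumors. In spheres the median difference of this list from adherent cells was 0.89. Xenografts were lower than spheres for 14 of the 26 genes and higher for 4. The following median and counts are again those of xenografts against adherent cells. Without probe sets whose suffix marks possible cross-hybridisation the median was 0.31, with 7 higher and 3 lower, below that of the adult muscle markers (0.36). BNIP3, a mitophagy receptor, read 8.82, 8.87 and 8.73 in adherent cells and 11.07, 10.62 and 10.82 in xenografts (2.03, SE 0.12, adjusted p = 1.3e-06). The mTORC1 inhibitor DDIT4 read 8.58, 8.69 and 8.98 against 10.41, 10.75 and 10.66 (1.85, SE 0.13, adjusted p = 4.6e-06), ANKRD37, an ankyrin-repeat protein and HIF target, 6.17, 5.86 and 5.64 against 8.03, 7.13 and 7.04 (1.51, SE 0.29, adjusted p = 0.0033). VEGFA, the main growth factor of blood vessels, rose on 3 of its 4 probe sets, from 7.78, 7.81 and 8.01 to 9.18, 9.001 and 8.80 (1.13, SE 0.14, adjusted p = 0.00019). PDK1, a kinase that inhibits pyruvate dehydrogenase, rose by 1.00 on all 3 of its probe sets, and EGLN1, the oxygen-sensing hydroxylase that marks HIF for decay, by 0.80. P4HA1, MXI1, PFKFB3, PFKFB4, KDM3A, ANGPTL4, CA12 and TMEM45A rose as well, by 0.62 to 1.38, PFKFB3 without a call when adherent replicate 1 or xenograft replicate 1 was left out (highest adjusted p = 0.067). Xenografts were below spheres for VEGFA by −1.51, for P4HA1 by −0.93 and for MXI1 by −0.77, and above them for BNIP3 by 0.78. Higher calls numbered 13 without xenograft replicate 1 and 13 to 15 over all arrays left out.

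Not all HIF targets took this direction. LOX, which crosslinks collagen, read 5.12, 5.38 and 5.04 in adherent cells and 4.55, 3.86 and 3.96 in xenografts (−1.06, SE 0.21, adjusted p = 0.0037), all within the dim range, and another of its 3 probe sets was called higher. The hydroxylase EGLN3 fell by 0.67, the secreted hormone STC2 by 0.65 and NDRG1, a usual marker of hypoxia, by 0.60 on the log2 scale, and 4 of the 6 arrays ended the call of NDRG1 when left out (highest adjusted p = 0.071). In spheres NDRG1 was at 8.71 and LOX at 8.04, far above both other groups. STC1, the paralog of STC2 that was not on the list, rose out of the dim range, from 4.96 ± 0.32 to 6.99 ± 0.37 (SD, n = 3 each).

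The promoters of BNIP3 and ANKRD37 are shown as examples that carry the core of the hypoxia response element within 250 bases before the RefSeq start on GRCh38.p14, at chr10:131981924-131982173 (minus strand) and chr4:185396591-185396840 (plus strand). Capitals mark ACGTG, searched on both strands; in CACGTG the matches of both strands overlap.
BNIP3: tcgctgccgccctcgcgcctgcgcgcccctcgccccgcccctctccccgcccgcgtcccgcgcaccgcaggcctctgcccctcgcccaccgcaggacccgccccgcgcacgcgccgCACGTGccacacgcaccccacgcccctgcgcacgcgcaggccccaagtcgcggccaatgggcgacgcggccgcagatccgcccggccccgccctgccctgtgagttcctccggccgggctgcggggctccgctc
ANKRD37: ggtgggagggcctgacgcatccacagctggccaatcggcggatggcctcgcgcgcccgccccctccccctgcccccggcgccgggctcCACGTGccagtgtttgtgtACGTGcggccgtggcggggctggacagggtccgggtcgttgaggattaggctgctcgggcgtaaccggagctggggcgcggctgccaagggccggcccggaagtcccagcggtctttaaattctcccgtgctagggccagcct
BNIP3 holds 1 such overlapping pair about 134 bases before the start and ANKRD37 holds 3 matches between 162 and 143 bases. Of the 14 higher genes, 13 had a window and 9 held the letters (ANKRD37, BNIP3, EGLN1, PDK1, P4HA1, PFKFB3, ANGPTL4, MXI1 and DDIT4). Of the lower genes 1 of 4 with a window held them and of the unchanged genes 3 of 5, and of all genes with a window 21.7% did.

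**Figure D2:**
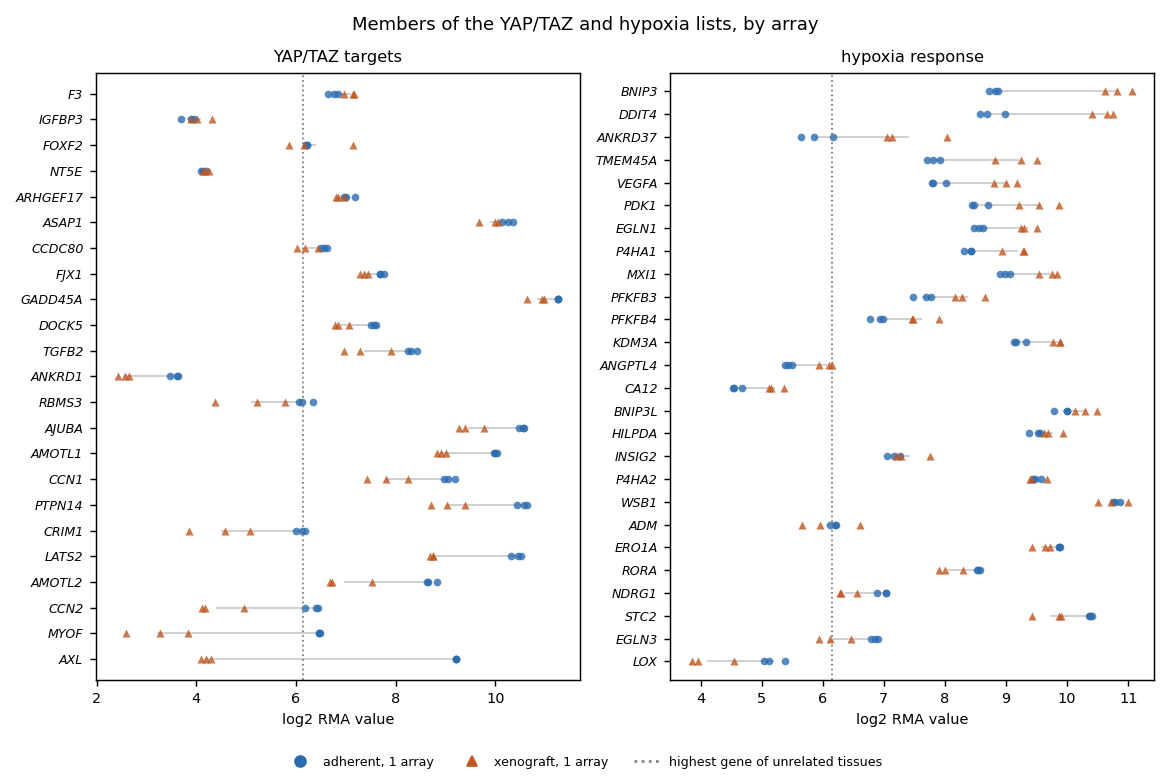
Log2 RMA values of every measured member of the YAP/TAZ list (left) and of the hypoxia list (right), 1 point per array (circles adherent, triangles xenograft), ordered by the difference, with a gray line between group means and a dotted line at the top of the dim range, 6.14. Of the YAP/TAZ list 18 of 23 genes were called lower, and of the hypoxia list 14 of 26 were called higher and 5 lower.

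Glycolysis genes were higher or not called, with 6 of 19 higher and 0 lower (median 0.11), and the count was 6 with any array left out. ALDOC, an aldolase of brain and of oxygen-poor tissue, rose from 5.36, 5.28 and 5.22 to 7.66, 7.12 and 7.35 (2.09, SE 0.16, adjusted p = 5.7e-06) and stood at 5.39 in spheres. The hexokinase HK2 rose by 0.72 on 2 of 3 probe sets and PFKL, the liver form of phosphofructokinase, by 0.68 on both of its probe sets. GPI and TPI1 rose by 0.41 and 0.37. The glucose transporter SLC2A1 gave 0.52 on its brighter probe set and −0.07 on the other. Oxidative phosphorylation genes showed no common shift, with 2 of 23 higher and 4 lower (median −0.02), such as NDUFS1, a core subunit of complex I, at −0.45 on 4 of 5 probe sets and COX7B at −0.37.

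Among angiogenic factors, 2 of 13 were higher and 4 lower (median 0.08). VEGFC, the growth factor of lymph vessels, read 7.19, 7.26 and 7.28 in adherent cells and 4.78, 6.05 and 5.62 in xenografts (−1.76, SE 0.24, adjusted p = 0.00032). The VEGF coreceptor NRP1 fell by 1.46 into the dim range, and THBS1, an inhibitor of vessel growth and a YAP target, fell by 1.29 on 4 of 7 probe sets. Thus VEGFA and VEGFC moved in opposite directions, with adjusted p of 0.00019 and 0.00032.

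Zinc-responsive genes rose along with SLC30A1. Metallothioneins are small proteins that bind zinc and copper, and their genes and SLC30A1 are switched on by the zinc sensor MTF1. Of 7 metallothioneins of the MT1 and MT2 families that were measured, 6 were higher and 0 lower. MT1X read 7.80, 7.68 and 7.84 in adherent cells and 10.05, 10.66 and 10.48 in xenografts (2.62, SE 0.14, adjusted p = 5.2e-07), and MT2A read 8.98, 8.90 and 9.10 against 10.79, 11.26 and 11.19 (2.09, SE 0.12, adjusted p = 1.3e-06). MT1H rose by 1.85, MT1F by 1.70, MT1G by 1.21 and MT1E by 0.99. These genes are close copies of each other in one cluster of chromosome 16, and their probe sets may share transcripts, so the values are not independent. In spheres the metallothioneins were as high or higher: xenografts differed from spheres by −0.49 for MT1X and by −0.72 for MT2A.

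Other zinc transporters moved less or fell. Over the whole list of metallothioneins and zinc transporters 9 of 33 were higher and 4 lower (median 0.14), and 7 to 10 were higher over the arrays left out. SLC39A3 and SLC39A11 rose by 0.29 and 0.37, and 5 of the 6 arrays ended each call when left out (highest adjusted p = 0.18 and 0.1). SLC39A10, an importer, fell from 11.13, 11.28 and 11.01 to 9.94, 9.54 and 9.94 (−1.33, SE 0.13, adjusted p = 3e-05), and its gene is one that cells lower when zinc is plentiful. The Golgi transporters SLC30A7 and SLC39A9 fell by 0.78 and 0.47 and the vesicle transporter SLC30A4 by 0.60. The promoters of SLC30A1, MT1X and MT2A are shown because the core letters of the metal response element, to which MTF1 binds, stand in each of them at least once. They are the 250 bases before the RefSeq start on GRCh38.p14, at chr1:211579162-211579411 (minus strand), chr16:56682220-56682469 (plus strand) and chr16:56608334-56608583 (plus strand). Capitals mark TGCACNC or TGCGCNC on either strand.
SLC30A1: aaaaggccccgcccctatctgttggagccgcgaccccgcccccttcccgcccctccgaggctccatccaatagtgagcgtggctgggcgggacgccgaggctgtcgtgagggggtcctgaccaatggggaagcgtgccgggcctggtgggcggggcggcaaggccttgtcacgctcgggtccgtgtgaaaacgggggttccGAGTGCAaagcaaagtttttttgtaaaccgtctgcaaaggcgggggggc
MT1X: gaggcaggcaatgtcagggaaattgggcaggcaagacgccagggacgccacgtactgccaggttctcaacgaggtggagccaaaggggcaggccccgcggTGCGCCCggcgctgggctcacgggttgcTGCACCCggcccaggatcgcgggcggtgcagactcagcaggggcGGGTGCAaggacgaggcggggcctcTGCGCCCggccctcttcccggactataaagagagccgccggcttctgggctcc
MT2A: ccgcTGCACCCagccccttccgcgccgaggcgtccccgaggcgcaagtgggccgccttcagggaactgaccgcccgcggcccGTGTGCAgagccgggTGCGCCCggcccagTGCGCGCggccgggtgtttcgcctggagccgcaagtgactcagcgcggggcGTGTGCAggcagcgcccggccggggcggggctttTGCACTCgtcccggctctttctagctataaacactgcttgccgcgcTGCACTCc
SLC30A1 holds 1 match, MT1X 4 and MT2A 7. Of the 9 higher genes 6 had a window and 5 held the letters (MT1H, MT1X, MT2A, SLC30A1 and SLC39A3), against 1 of 4 lower genes and 7 of 15 that were not called. Such short letters are common, and 28.5% of all genes with a window held them.

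Muscle genes split by their level. Among developing and slow muscle genes of the sarcomere and its synapse, 8 of 22 were higher and 9 lower (median 0.11), and most of the members that fell were bright. Over the brighter probe sets alone 5 were higher and 9 lower, and the median was −0.51. The fetal and cardiac actin ACTC1 read 12.75, 12.85 and 12.75 in adherent cells and 11.60, 11.55 and 11.45 in xenografts (−1.25, SE 0.09, adjusted p = 5e-06). The slow troponin T, TNNT1, read 11.49, 11.36 and 11.53 against 9.96, 9.86 and 9.99 (−1.52, SE 0.10, adjusted p = 3.1e-06), and the embryonic light chain MYL4 fell by 1.43 on all 4 of its probe sets. NEB, the nebulin ruler of the thin filament, fell by 1.17 and CHRNA1, of the fetal acetylcholine receptor, by 0.82. Those that rose, MYH7, CHRND, MYOM2, MYL2, MYL3 and MYBPC1 among them, did so by 0.32 to 0.79 and, but for TTN and ENO3, had adherent values in the dim range. The calls of MYL2, MYOM2, MYBPC1, TTN and ENO3 were each lost with 3 to 5 of the 6 arrays left out, and another probe set of TTN was called lower. The bright fall and dim rise run along with the shift by brightness over all genes given above.

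Of 14 myogenic transcription factors, 6 were lower and 2 higher (median −0.17), and after quantile normalization 3 were lower and 2 higher. Without xenograft replicate 1 the median was −0.04. MYOD1 read 11.06, 11.17 and 11.14 in adherent cells and 10.65, 11.01 and 10.94 in xenografts (−0.26, adjusted p = 0.1), and MYOG read 9.89, 9.96 and 10.09 against 9.84, 10.04 and 10.06 (0.00, 95% interval −0.21 to 0.21). MEF2C, a partner of both, fell by 0.92, MEF2A by 0.51 and MEF2D by 0.53. PAX3 fell from 8.16, 8.40 and 8.25 to 7.79, 7.70 and 7.72 (−0.54, SE 0.11, adjusted p = 0.0052) on 1 of 4 probe sets, and FOXO1 from 8.51, 8.65 and 8.64 to 8.14, 8.09 and 7.88 (−0.56, SE 0.10, adjusted p = 0.0019) on 2 of 3. Probe sets of either gene may also find the fusion transcript. Of 22 targets of PAX3-FOXO1, 7 were lower and 3 higher (median −0.26). The microtubule protein DCX fell by 1.32, the potassium channel KCNN3 by 0.75, the receptor MET by 0.65 and JARID2 by 0.54, while MYCN and ABAT rose by 0.48 and 0.51. MYCN lost its call without adherent replicate 3 (adjusted p = 0.054). After quantile normalization the targets counted 6 lower and 6 higher.

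The study chose Notch and stem cell genes for its heat maps, and their probe sets were looked at singly. HES1, a repressor that Notch switches on, rose on a pair of probe sets that were dim in adherent cells (means 5.43 and 5.05). The brighter read 5.25, 5.46 and 5.57 in adherent cells and 7.06, 6.98 and 7.35 in xenografts (1.70, SE 0.13, adjusted p = 8.1e-06), and the other gave 1.33. Both carry a suffix for possible cross-hybridisation. The remaining HES1 probe set, without that suffix, was dim in both groups and gave −0.04. HEY1 rose on both probe sets, by 0.83 and 0.60 (adjusted p = 0.017 and 0.04), with tumor values of 8.04, 7.12 and 8.01 against 6.74 to 7.004, and 4 of the 6 arrays ended this call when left out (highest adjusted p = 0.063). For HES1 xenografts were above spheres by 1.04, and for HEY1 they were below by −0.77. NOTCH4 rose by 0.38 on 1 of 2 probe sets within the dim range (adjusted p = 0.036), and 5 of the 6 arrays left out ended the call. No probe set of JAG1, RBPJ or NOTCH3 was called here. JAG1 gave 0.51 (adjusted p = 0.08) and was called after quantile normalization (adjusted p = 0.027) and without xenograft replicate 2 (adjusted p = 0.034). NOTCH3 gave 0.27 (adjusted p = 0.28) and 0.51 without xenograft replicate 1 (adjusted p = 0.0087). RBPJ gave −0.23 (adjusted p = 0.087) and was called lower after median centring (adjusted p = 0.046), in a trended robust fit (adjusted p = 0.028) and over the brighter probe sets alone (adjusted p = 0.046). None of the 4 probe sets of SOX2 was called, and of 2 for NANOG 1 rose within the dim range, from 2.61 to 3.23 (adjusted p = 0.0058). The probe set of POU5F1 also names its close copies, so no value is given for it.

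Over the whole pathway 7 of 26 genes were higher and 5 lower (median 0.21). Receptors went both ways, with NOTCH1 from 8.03, 8.17 and 8.03 to 8.86, 8.57 and 8.51 (0.57, SE 0.11, adjusted p = 0.0033) on 1 of 2 probe sets and NOTCH2 from 11.002, 11.19 and 10.93 to 10.45, 10.50 and 10.23 (−0.65, SE 0.10, adjusted p = 0.001) on all 4. The proteases that cut the receptors after ligand binding, ADAM10 and ADAM17, fell by 0.53 and 0.33, each on all 3 probe sets, and 3 of the 6 arrays ended the call of ADAM17 when left out (highest adjusted p = 0.076). The coactivator MAML2 fell by 2.08 within the dim range. HES6, which promotes myogenic differentiation, rose from 8.94, 8.78 and 9.01 to 9.99, 9.95 and 10.14 (1.12, SE 0.10, adjusted p = 2.9e-05) and was at 6.83 in spheres. NRARP and LFNG, which tune the signal, rose by 0.61 and 0.43, the former not called without adherent replicate 3 (adjusted p = 0.0502) and the latter with 4 of the 6 arrays left out in turn (highest adjusted p = 0.15). Quantile normalization gave 10 higher and 3 lower, median centring 5 and 6. Of 13 stem cell genes 3 were higher and 1 lower (median 0.20). LIN28B, which blocks the let-7 miRNAs, was the one that fell, from 9.69, 9.85 and 9.70 to 8.73, 8.83 and 8.64 (−1.01, SE 0.09, adjusted p = 2.4e-05), and those that rose, DPPA4, PRDM14 and MYC, did so by 0.30 to 0.48. PRDM14 and MYC lost their calls with 3 and 4 of the 6 arrays left out in turn (highest adjusted p = 0.086 and 0.11).

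Of 45 receptor tyrosine kinases 13 were lower and 4 higher (median −0.07), beside 14.3% and 12.6% of all genes. After quantile normalization 8 were lower and 5 higher, and after median centring 16 and 3. After AXL the ephrin receptors EPHA5 and EPHA2 fell most, EPHA5 from 7.27, 7.52 and 7.20 to 5.19, 6.43 and 6.36 (−1.34, SE 0.26, adjusted p = 0.0035) and EPHA2 from 8.47, 8.45 and 8.49 to 6.86, 7.53 and 7.76 (−1.09, SE 0.18, adjusted p = 0.0012). MET, the receptor of HGF, fell by 0.65 on 3 of 4 probe sets, the collagen receptor DDR2 by 0.51 and RYK by 0.40, the last not called with 4 of the 6 arrays left out in turn (highest adjusted p = 0.094). FGFR3 rose by 0.56 on 1 of 2 probe sets, and KIT by 1.20 in the dim range, where xenograft replicate 1 read 5.32 and the others 3.79 and 3.77. Without that array KIT gave 0.69, and without adherent replicates 2 or 3 it was not called. FGFR4 had an adjusted p of 0.042 here and was not called with 5 of the 6 arrays left out in turn.

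Binding proteins of insulin-like growth factors went both ways. IGFBP2 rose from 9.35, 9.32 and 9.45 to 10.65, 10.37 and 10.56 (1.15, SE 0.11, adjusted p = 3.4e-05), with spheres at 10.47. IGFBP5, which muscle cells secrete on differentiation, rose from 7.97, 8.04 and 8.03 to 9.09, 8.91 and 8.88 on 5 of 6 probe sets (0.95, SE 0.09, adjusted p = 3.2e-05), and spheres were at 7.32. IGFBP6, which prefers IGF2, fell from 7.02, 6.86 and 7.16 to 5.92, 5.73 and 5.64 (−1.25, SE 0.11, adjusted p = 1.5e-05). The clearing receptor IGF2R fell by 0.82 and the adaptor IRS1 by 0.51, each on all 3 probe sets, and IRS1 was not called without adherent replicate 2 (adjusted p = 0.052). Over the list 3 of 14 were higher and 6 lower (median 0.02). IGFBP7 gave 1.07 on its brightest probe set, and another of its 3 probe sets was called lower.

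Early response and feedback genes of the ERK pathway were higher in 9 of 23 cases and lower in 2 (median 0.31). The feedback inhibitors led: SPRY4 rose from 6.90, 7.13 and 6.85 to 7.84, 8.10 and 8.64 (1.23, SE 0.17, adjusted p = 0.00037), SPRY1 from 8.01, 8.03 and 8.07 to 8.80, 8.80 and 8.81 (0.77, SE 0.10, adjusted p = 0.00025), and the ERK phosphatase DUSP6 from 9.69, 9.91 and 9.87 to 10.65, 10.55 and 10.64 on all 3 probe sets (0.79, SE 0.09, adjusted p = 0.00012). DUSP4 and the ETS factor ETV5 rose by 0.73 and 0.58. EGR1 gave 0.99 with values of 8.26, 6.79 and 7.03 in the tumors against 6.29 to 6.49, and 0.54 without xenograft replicate 1. Leaving out any 1 adherent array ended the call of EGR1 (highest adjusted p = 0.088). CCND1, the D cyclin that ERK drives, fell by 1.00, and JUN by 0.36 on all 4 probe sets, a call that 5 of the 6 arrays ended when left out (highest adjusted p = 0.14). With arrays left out in turn, 5 to 9 were higher. The rise was not particular to the tumors. For this list the median difference of spheres from adherent cells was 0.43. Xenografts were lower than spheres for 11 of the 23 genes and higher for 1.

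Ligands and antagonists of the BMP branch fell on both sides. BMP4 read 8.88, 8.51 and 8.69 in adherent cells and 7.19, 7.84 and 7.88 in xenografts (−1.06, SE 0.17, adjusted p = 0.00092), BMP7 fell by 0.94, and so did the antagonist noggin (NOG), by 0.93. Gremlin 1 (GREM1), another antagonist, fell from 9.76, 9.91 and 9.62 to 6.41, 7.28 and 6.85 on both probe sets (−2.92, SE 0.19, adjusted p = 2.1e-06), with spheres at 6.37. ID4, an inhibitor of differentiation factors, rose by 1.15 on 4 of 5 probe sets and the latent TGF-beta binding protein LTBP2 by 0.81 on both, while LTBP1 fell by 0.47. In all, 5 of 25 were higher and 5 lower (median 0.11). BAMBI, a decoy receptor, gave 0.94, with its highest value in xenograft replicate 1 and a difference of 0.56 without it, and lost its call without any 1 adherent array. In the Hedgehog pathway 6 of 13 were lower and 0 higher (median −0.35), among them the ligand-binding HHIP, at 10.48, 10.43 and 10.54 in adherent cells and 9.72, 9.69 and 9.63 in xenografts, on all 4 of its probe sets (−0.80, SE 0.10, adjusted p = 0.0002). The factor GLI2 fell by 0.56 on 2 of 3 probe sets.

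WNT targets and antagonists were lower in 8 of 19 cases and higher in 1 (median 0.05). The secreted antagonist SFRP4 read 6.57, 6.69 and 6.61 in adherent cells and 4.56, 5.02 and 5.12 in xenografts, on both probe sets (−1.73, SE 0.13, adjusted p = 6.8e-06). DKK3 fell by 1.17 on 4 of 6 probe sets, the ligand WNT5B by 1.15 and LEF1, a nuclear partner and target of beta-catenin, by 0.98, from 9.70, 9.76 and 9.70 to 8.70, 8.76 and 8.75. AXIN2, the most used target, gave −0.67 on 1 of 4 probe sets and 0.01 as the mean over them. Over the brighter probe sets alone the median of the list was −0.67, with 7 lower and 1 higher.

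Cell division genes were lower in 8 of 26 cases and higher in none (0; median −0.25), beside 14.3% lower and 12.6% higher of all genes. All 26 lay above the dim range, where lower calls were more common. In the brightest of the 10 brightness bands 453 of 1978 genes were lower and 225 higher, and in the next 592 of 1977 and 236. CENPE, a motor of the kinetochore, fell from 10.60, 10.61 and 10.41 to 9.35, 9.64 and 9.64 (−1.0, SE 0.12, adjusted p = 0.00014), KIF11, a motor of the spindle, by 0.63, and the kinase AURKA by 0.40 on 2 of 3 probe sets. MKI67, the usual marker of cycling cells, gave −0.36 (adjusted p = 0.04), and 3 of the 6 arrays ended this call when left out (highest adjusted p = 0.16). The count was 4 after quantile normalization, 13 after median centring and 3 to 9 with arrays left out, 9 without xenograft replicate 1. DNA replication genes were lower in 6 of 31 cases and higher in 1 (median −0.14), where 14.3% of all genes were lower and the share was larger among bright genes. POLA2, a subunit of polymerase alpha, rose from 8.27, 8.37 and 8.48 to 8.97, 9.07 and 9.24 on 2 of 3 probe sets (0.72, SE 0.10, adjusted p = 0.00048), while RRM1, of ribonucleotide reductase, fell by 0.44 on both. These genes counted 3 higher and 3 lower after quantile normalization.

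CDKN1A, the p21 inhibitor that p53 and other signals induce, was the steepest fall among cell cycle inhibitors, from 9.71, 9.72 and 9.76 to 7.89, 7.75 and 7.46 (−2.03, SE 0.11, adjusted p = 8.9e-07), and it stood at 10.38 in spheres. The D cyclin CCND2 fell from 12.48, 12.72 and 12.63 to 11.63, 11.80 and 11.72 (−0.89, SE 0.09, adjusted p = 6.5e-05), and its kinase CDK6 by 0.89 on 4 of 7 probe sets. Of 16 D cyclins and inhibitors 4 were lower and 1 higher (median −0.20). p53 targets were lower in 8 of 15 cases and higher in 1 (median −0.43). ZMAT3 fell by 0.91 on 4 of 5 probe sets, MDM2, the ligase that degrades p53, by 0.78, the death receptor TNFRSF10B by 0.77 and TIGAR by 0.64. TP53I3 rose, from 9.25, 9.09 and 9.22 to 10.29, 10.31 and 10.23 (1.09, SE 0.09, adjusted p = 1.3e-05). Several of these genes answer to other signals as well.

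Among lipid genes, those of the fatty acid list leaned lower. Of 10 fatty acid genes, 5 were lower and 1 higher (median −0.36): SREBF1, the factor that drives them, read 8.45, 8.41 and 8.64 in adherent cells and 6.80, 6.82 and 7.41 in xenografts (−1.49, SE 0.15, adjusted p = 5e-05), the ligase ACSL1 fell by 1.43 on both probe sets, the desaturase SCD by 1.01 on 2 of 4 and ACLY by 0.45 on all 3. ME1, malic enzyme, rose from 3.23, 3.56 and 3.22 to 4.89, 5.31 and 5.06 (1.75, SE 0.14, adjusted p = 8.8e-06), within the dim range and on 1 of 3 probe sets. The median of the fatty acid list was −0.14 when the probe sets of each gene were averaged. For spheres minus adherent cells it was −0.46. Cholesterol genes counted 2 higher and 2 lower of 19 (median 0.01), with STARD4, a sterol carrier, at −0.83. NRF2 targets counted 2 higher and 4 lower of 17 (median −0.17). NQO1 fell by 0.78 on all 3 probe sets, and AKR1B10 rose by 1.40 within the dim range. SLC7A11, the cystine transporter, read 4.17, 7.77 and 6.39 in the tumors against 7.23 to 7.75 (adjusted p = 0.15).

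Stress genes were higher in 5 of 22 cases and lower in 1 (median 0.17). DDIT3, the CHOP factor of the unfolded protein response, rose from 8.90, 8.67 and 9.19 to 9.74, 10.34 and 10.26 (1.19, SE 0.17, adjusted p = 0.00049), CHAC1, which degrades glutathione, by 1.30 and XBP1 by 0.38 on both probe sets. In spheres DDIT3 was at 11.93, above both groups. Heat shock proteins of the cytosol were higher in 3 of 12 cases and lower in 1 (median 0.15). CRYAB, a small heat shock protein that muscle makes in quantity, rose from 5.86, 5.62 and 5.54 to 7.48, 7.24 and 8.04 (1.92, SE 0.17, adjusted p = 2.3e-05). DNAJB1 read 11.19, 9.70 and 10.24 in the tumors against 9.24 to 9.35, and its difference of 1.10 became 0.69 without xenograft replicate 1. The DNAJB4, CHORDC1 and HSPA6 chaperones were highest in that same array.

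Interferon and antigen presentation genes were higher in 6 of 29 cases and lower in 3 (median 0.17), beside 12.6% and 14.3% of all genes and a median of 0.15 over the dim genes. GBP1, a GTPase that interferon gamma induces, rose from 4.69, 4.15 and 4.47 to 5.65, 5.61 and 5.55 on 3 of 4 probe sets (1.16, SE 0.14, adjusted p = 0.00014) and stayed dim, and B2M, the light chain of class I molecules, fell from 12.66, 12.74 and 12.64 to 12.01, 12.27 and 12.13 on all 3 (−0.54, SE 0.10, adjusted p = 0.0023). With arrays left out 2 to 7 were higher. Of 19 cytokines and NF-kappa-B targets 1 was higher and 2 lower (median 0.14): besides IL11, NFKBIZ fell from 6.92, 6.81 and 6.92 to 4.64, 5.65 and 5.33 on both probe sets (−1.68, SE 0.20, adjusted p = 0.00015), and spheres had it at 9.09. Glucocorticoid targets went both ways, 2 of 11 higher and 3 lower (median 0.14), with the kinase SGK1 at 1.38 and PDK4 at 1.12 against KLF9 at −0.84. Cadherins counted 2 higher and 1 lower of 17 (median 0.17). CDH6 rose from 6.61 in each adherent array to 8.15, 7.46 and 7.75 on 5 of 6 probe sets (1.18, SE 0.19, adjusted p = 0.00095), CDH12 rose by 1.47 in the dim range, and the muscle and nerve cadherin CDH2 fell by 0.82 on both probe sets.

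**Figure D3:**
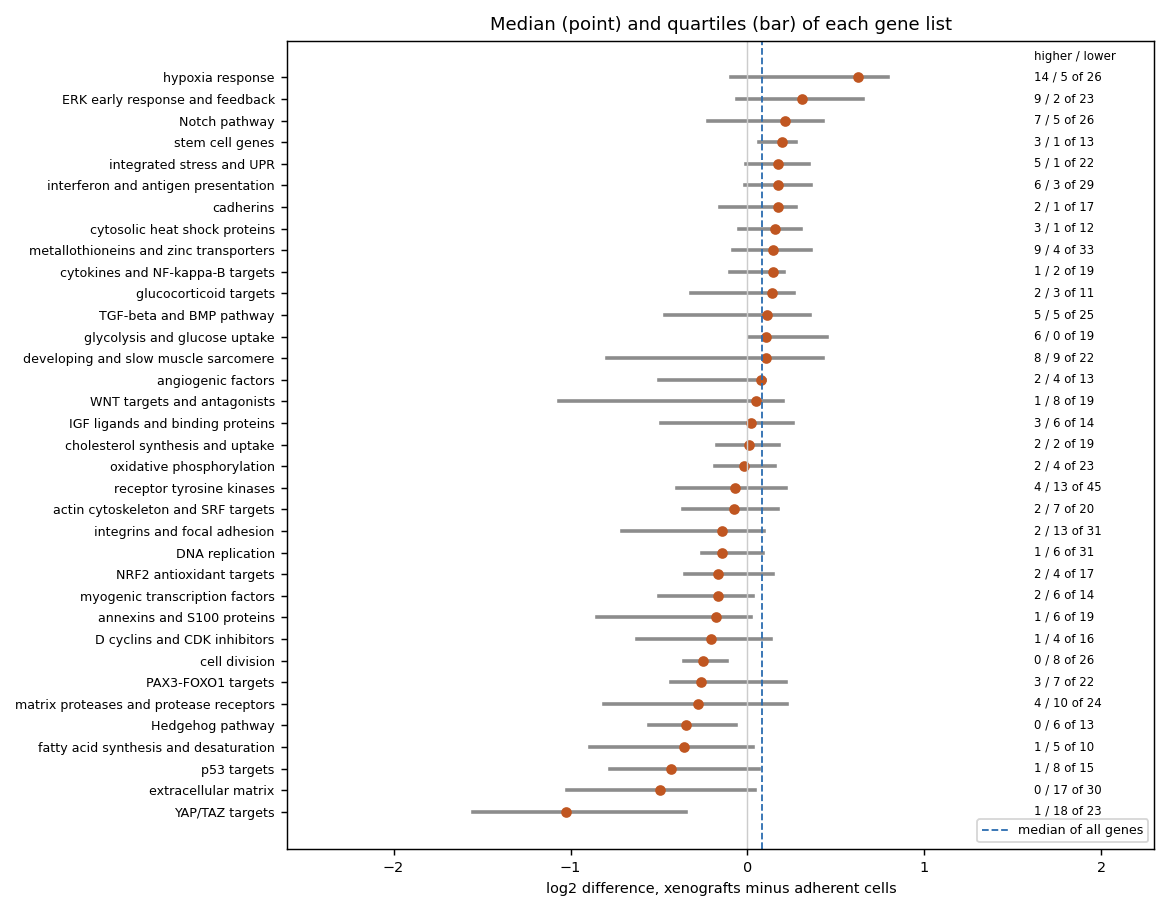
Median (point) and quartiles (bar) of the log2 difference, xenografts minus adherent cells, over the genes of each list, with the numbers called higher and lower of those measured at the right; the dashed line is the median of all genes, 0.08. The hypoxia list has the highest median, 0.63, and the YAP/TAZ list the lowest, −1.03, followed by extracellular matrix at −0.49.

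Cells of the mouse are part of a xenograft, and markers of 9 host cell types were read for their trace. Of 123 markers 115 were measured, 24 were called higher and 10 lower, and 4 rose by at least 2-fold (LUM, COL1A2, ACTA1 and MYH4). Of the 115, 96 lay in the dim range in adherent cells, where 21 were called higher with a median difference of 0.23, beside 1255 of the 10046 dim genes (12.5%) and a median of 0.15 for these. The 21 genes of unrelated tissues had a median of 0.13 with 1 called higher. No value on this scale is 0, so absence reads as a dim value.

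Defining markers of blood and vessel cells stayed near that level. The array carries human probes only, and their binding of mouse RNA was not tested. A dim value therefore does not show that such mouse cells were absent. PTPRC (CD45), the defining protein of leukocytes, read 2.59, 2.64 and 2.62 in adherent cells and 2.62, 2.60 and 2.64 in xenografts. CDH5 (VE-cadherin), which defines endothelium, read 3.34, 3.50 and 3.39 against 3.36, 3.36 and 3.49, and PECAM1 5.18 in each adherent array against 5.53, 5.25 and 5.66 (adjusted p = 0.087). Of 16 macrophage and leukocyte markers 4 were higher and 1 lower (median 0.22), led by AIF1, at 5.48 to 5.85 against 6.08 to 6.37 (0.66, adjusted p = 0.003), and their summed linear signal was 1309 to 1369.6 in adherent cells and 383.59 to 477.8 in xenografts, where LAPTM5 made up most of the adherent sum. With arrays left out 1 to 3 of these markers were higher. Of 14 endothelial markers 2 were higher (KDR and ROBO4, both dim) and 1 lower (ENG, endoglin, by 1.20), with sums of 516.68 to 526.51 against 380.44 to 509.76 (median 0.19). Of 9 red cell markers 3 were higher by 0.29 to 0.37, 1 after quantile normalization and 0 after median centring (sums 202.96 to 211.61 against 237.48 to 253.83; median 0.24). Adipocyte markers counted 1 of 10 higher (sums 190.69 to 210.5 against 222.85 to 233.47; median 0.20) and skin markers 1 of 11 (sums 1825.9 to 1910.4 against 1758.8 to 2039.9; median 0.18). Of 11 pericyte markers 1 was higher and 2 lower (sums 773.75 to 782.7 against 622.36 to 686.98; median 0.11), and of 7 Schwann cell markers 0 were higher and 1 lower (sums 1674.9 to 1744.5 against 1265.7 to 1415.8; median 0.01).

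Fibroblast and muscle markers went further on their brightest probe sets. Of 16 fibroblast markers 5 were higher and 2 lower (median 0.24), with sums of 6228.4 to 6765.8 in adherent cells and 4805.5 to 5756.2 in xenografts. Without probe sets whose suffix marks possible cross-hybridisation the fibroblast median was 0.04, beside 0.08 for all genes. LUM, COL1A2 and DCN then lost their calls. Beside LUM, COL1A2 read 4.82, 4.82 and 4.61 against 6.54, 5.73 and 5.87 (1.30, adjusted p = 0.0004) on 1 of 3 probe sets, and DCN, decorin, rose by 0.65. COL3A1, already bright in the cultured cells, read 9.50, 9.62 and 9.46 against 10.90, 10.47 and 9.66 (0.82, adjusted p = 0.028); 5 of the 6 arrays ended this call when left out, and the brighter probe set without a suffix for cross-hybridisation was dim and gave −0.02. POSTN was at 6.23 in xenograft replicate 1 and at 3.27 and 3.52 in the others, and FAP at 5.12, 4.08 and 4.22, and neither passed the test on its brightest probe set. The receptor PDGFRB, a marker of fibroblasts and pericytes, fell by 0.81. Of 21 markers of adult muscle 7 were higher and 3 lower (median 0.29), with sums of 1067.8 to 1143.7 against 1224.9 to 1559. After ACTA1 and MYH4 the rises were ATP2A1, the fast calcium pump, by 0.69, AMPD1 by 0.55 (not called without adherent replicate 2, adjusted p = 0.078) and ACTN3 by 0.52, and creatine kinase (CKM) read 6.18, 6.21 and 6.42 against 6.13, 6.49 and 6.54 (adjusted p = 0.5). MYL1 and myoglobin (MB) were lower, by 1.11 and 0.99. Among the tumors LUM, POSTN, COL1A2 and FAP were highest in xenograft replicate 1 and ACTA1 was even. The part of mouse RNA in any of these differences was not tested.

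**Figure D4:**
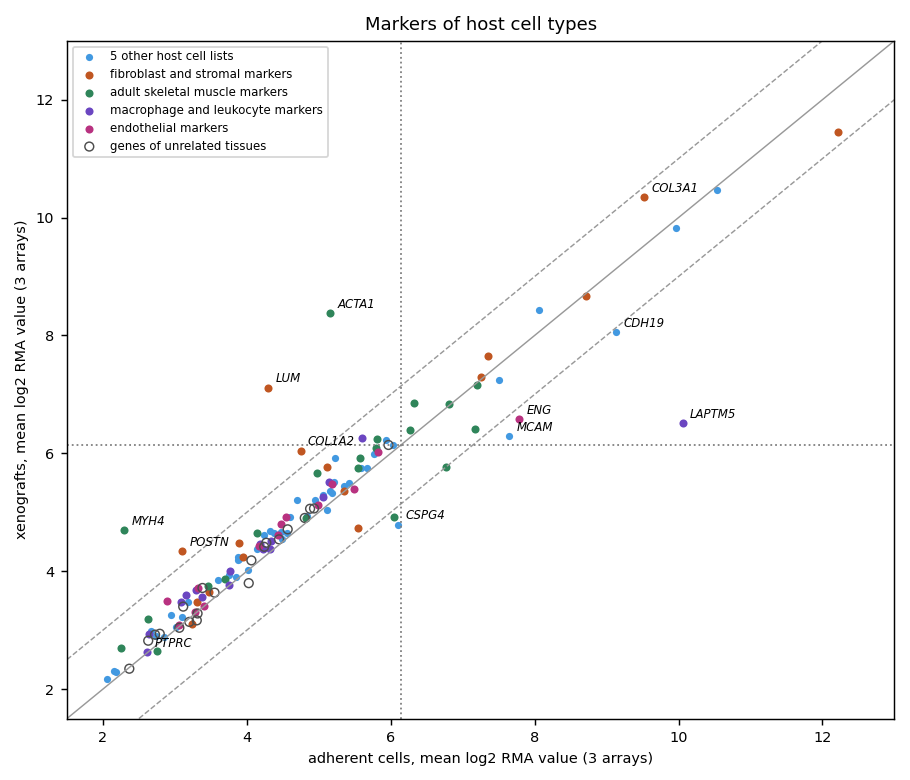
Mean log2 RMA value of each host cell marker in adherent cells (horizontal) and in xenografts (vertical), 3 arrays each, colored by cell type, with open circles for genes of unrelated tissues; the solid line marks equal values, the dashed lines 2-fold differences and the dotted lines the top of the dim range, 6.14. Most markers lie in the dim corner near the line of equality, while ACTA1, LUM, MYH4 and COL1A2 lie above it and LAPTM5, MCAM, CSPG4 and ENG below.

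Some genes crossed the whole dim range. In 44 genes the adherent mean was above 6.14 and the xenograft mean below 5.06, the 90th percentile of the same values of the unrelated genes, and all 44 were called lower. Of these, 29 had sphere means above 6.14, MAMDC2, AXL and NNMT among them. These 29 also include the growth factor TGFA, by −2.32, PAPSS2, which makes the sulfate donor of proteoglycans, by −2.52, the protease PAPPA, which cuts IGF binding proteins, by −1.72, and the muscle genes ASB5 and KLHL31, by −3.02 and −1.74. The remaining 15 were below 6.14 in spheres too, such as the growth factor FGF7 (−2.63, with spheres at 5.18), the signaling inhibitor SOCS3 (−2.13, spheres at 5.09), the kinase NUAK1 (−2.76, spheres at 5.62) and the muscle gene SYNC (−1.87, spheres at 5.81). The reverse course was rarer, with 16 genes, all called higher, 2 of which were above 6.14 in spheres (STC1 and LINC01198). PLPPR1, of neurite growth, rose from 4.99 ± 0.07 to 7.05 ± 0.54, TMEM100 from 4.46 ± 0.21 to 6.24 ± 0.91 and ADIRF from 5.06 to 6.54 (SD, n = 3 each). These genes were picked by their levels, so the counts describe them and test nothing.

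Xenograft replicate 1 differed from its partners in both directions, 50 genes above and 64 below, and 62 of these 114 genes were called changed between the groups. Above were POSTN, LUM, the stress genes HSPA6, DNAJB4 and CHORDC1, the sclerostin gene SOST, at 4.90 against 3.03 and 2.67, and CHST15, at 7.85 against 5.70 and 6.06. Below were CEP15, a centrosome gene, at 4.72 against 7.70 and 7.77 where adherent cells read 7.84 to 7.96, FRAS1, ADA, the adenosine deaminase, at 5.20 against 7.46 and 7.67, PKIG, at 3.59 against 5.90 and 6.03, TFPI, an inhibitor of clotting, at 6.83 against 8.56 and 8.30, and MMP2. FABP7, a fatty acid binding protein of neural progenitors, was at 7.71 there and at 9.09 and 9.43 in the others, against 7.26 to 7.37 in adherent cells (1.42, adjusted p = 0.0092). The labels give no tumor site, size or dissection that would set this sample apart, and its poly-A control value was 8.61, beside 7.79 and 8.14 in the other tumors. Their part in these differences was not tested. Without this array 17 YAP/TAZ targets and 17 matrix genes were lower, and 13 hypoxia genes and 8 metallothioneins and zinc transporters were higher. The median turned its sign in 6 of the 46 lists, those of oxidative phosphorylation, cholesterol, IGF, WNT, angiogenic factors and Schwann cells, by at most the step of the angiogenic factors from 0.08 to −0.08.

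**Figure D5:**
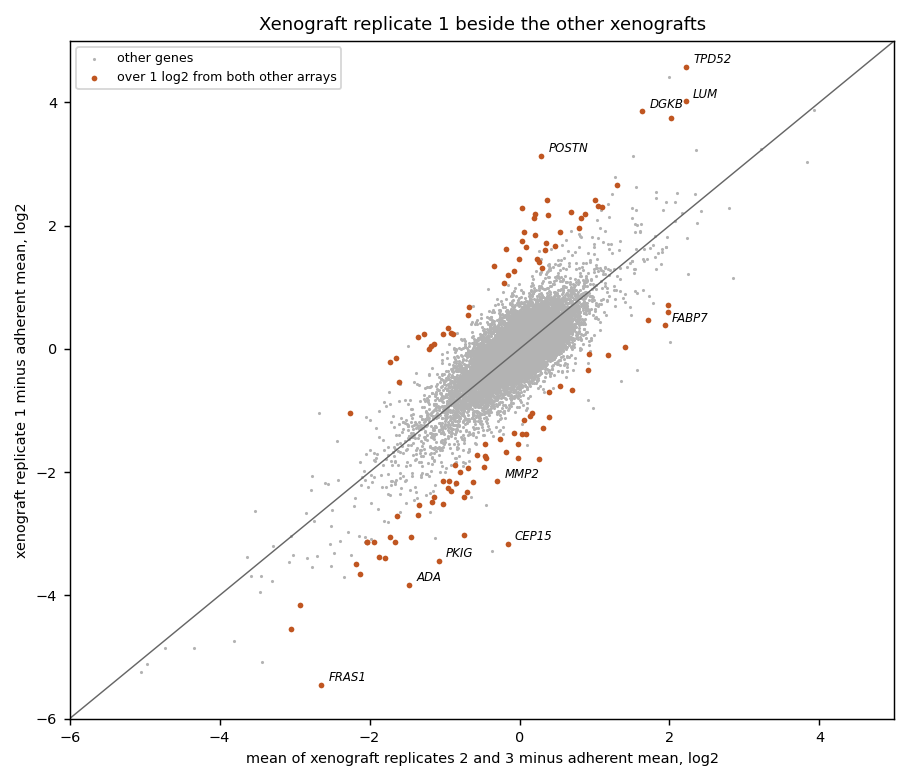
Difference of xenograft replicate 1 from the adherent mean (vertical) against the difference of the mean of xenograft replicates 2 and 3 from the same mean (horizontal), in log2 units, 1 point per gene. The 114 colored genes lie over 1 log2 unit from both other xenografts, 50 above and 64 below. Among them POSTN and TPD52 lie furthest above the line of equal values and CEP15 and FRAS1 furthest below it.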

How the data were processed

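RNA of Rh30 cells grown as adherent cultures, as spheres and as xenografts (3 samples each) was hybridised to 1-colour Affymetrix arrays. The deposited values are log2 intensities that the authors obtained with RMA, which corrects the background, quantile-normalizes the arrays and summarizes the probes of a set; the RMA software version is not given in the sources used here. Of 54675 probe sets, 62 controls were left out and 54613 were fitted. In the platform annotation 41091 of these had 1 gene symbol (41037 matched RefSeq), 1801 had several and 11721 had none, and only probe sets with 1 symbol were named. Where a gene had several probe sets, the one brightest on average across the 9 arrays stood for it (19775 genes).

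Groups were taken from the sample labels. Limma 3.58.1 (R 4.3.3) fitted 1 mean per group over all 9 arrays, with empirical Bayes moderation, and a Benjamini-Hochberg adjusted p across all 54613 fitted probe sets was called below 0.05. This procedure was tested on simulated data. The number of arrays limits the precision. Host cross-hybridisation cannot be separated from human signal in summarized values. Named were the genes of the heat maps, the 15 largest rises and falls with arrays that did not overlap, the largest changes of each list and members whose role orders the account. Genes that crossed the dim range or stood apart in 1 array were chosen after their values were seen. The comparison and the lists were chosen with earlier results of these data known. Alternatives were other scalings, other ways to choose or average probe sets, the 6 arrays alone, array weights, a trended robust fit, a block for the replicate number, a 2-fold threshold, the methods' t-test and each array left out in turn.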

Additional observations from a re-analysis of the deposited data

How the results depend on the processing

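The number of changed genes was 5329, with 2500 higher and 2829 lower. Of the alternatives, the methods' t-test with Benjamini-Hochberg adjustment gave 2239 (841 higher, 1398 lower), and unadjusted at the threshold of the methods it gave 6523. With a 2-fold change required as well the counts were 649, 158 and 491, and 1498 against spheres in place of 8705. Leaving out each of the adherent and xenograft arrays in turn (no sphere array was left out) gave 3423 to 5887 changed genes, 1363 to 2871 higher and 2060 to 3016 lower, and 7869 to 8907 against spheres. The poly-A control difference of 0.699 ranged from 0.4841 to 0.8932 in the same way.

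Replicate numbers did not pair the samples: the deviations of samples of the same number correlated by −0.177, −0.103 and 0.125, and 2 of the 9 arrays correlated best with an array of their own number. With the replicate number as a block 4742 genes were changed, 2154 higher and 2588 lower, and 8255 against spheres.

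Of 343 genes that the text or the naming rule names, 307 kept direction and side of the threshold after quantile normalization and 316 after median centring, and no called gene (0) reversed under these scalings. The methods' t-test with Benjamini-Hochberg adjustment kept 187 and ended the call of 155, among them TPD52, LUM, DRC9, HSPA6, DGKB, AFM, FRAS1, HEY1 and CCN1, and a required 2-fold change ended that of 187. Without probe sets whose suffix marks possible cross-hybridisation, the log2 difference reversed for HES1 (−0.03664), ANXA2 (0.2014), COL3A1 (−0.02202), DES (0.03538), EYA1 (0.06199), F2R (0.2496), FAS (0.1365), IGF2BP3 (0.2013), KIF23 (0.0117), LAMA4 (0.1667), MCAM (0.3592), MYOF (0.0348), RHAG (−0.0829), SLC2A1 (−0.06864), SLC39A3 (−0.01805) and TPM1 (−0.5055). A further 20 named genes lost their call without these probe sets, among them TPD52, LUM, DRC9, EPB41L4A, FRAS1, COL1A2 and DCN. Averaging every probe set of a gene reversed the log2 difference for ACACA (0.02963), AXIN2 (0.007584), ERBB4 (0.07253), TPM1 (−0.413) and TTN (−0.08127). Of the 323 of these genes that were called, 252 kept the call with each of the 6 arrays left out and 71 lost it with at least 1, and 0 reversed. The median of 14 of the 46 gene lists took both signs over the alternatives, and that of 29 others kept its sign but moved by over 1.5 times under at least 1. The cause was not tested.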
